A study of Mus musculus with 9 samples.

Results

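The 10 genes described here encode proteins that decide how long a messenger RNA lasts in a T cell. They are Zfp36, Zfp36l1, Zfp36l2, Zc3h12a, Zc3h12d, Rc3h1, Rc3h2, Arid5a, Btg1 and Btg2, taken by symbol from the 23393 genes with a usable symbol in the count files, and all 10 had enough counts to be tested. They were put together with results of these libraries already known, so their own differences between groups are given as a description and support nothing further.

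RNA was sequenced from regulatory T cells (Tregs), the Foxp3-expressing CD4 T cells that hold immune responses in check, taken from mouse spleen. Each of 3 groups had 3 libraries: Tregs of genotype ST2KO, ST2-high Tregs (labelled wild type, ST2 High) and ST2-low Tregs (labelled wild type, ST2 Low). ST2, encoded by Il1rl1, is the receptor for interleukin-33, and the series concerns ST2-positive Tregs in kidney injury. The labels do not say how the cells of any group were sorted, and they give no ST2 level for the ST2KO cells. The sources used here give no age, sex, number of animals or design of the knockout allele, and the p-values below measure the spread between these libraries, which may be technical. In bulk RNA of this kind, fewer cells of a type and less RNA per cell cannot be told apart.

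The life of an mRNA usually ends when its poly(A) tail is removed by the CCR4-NOT complex, after which the cap is taken off and the body is degraded from either end. ZFP36 family proteins bind AU-rich elements in 3′ untranslated regions (3′ UTRs) and bring CCR4-NOT to them, Regnase proteins (Zc3h12a and Zc3h12d) cut mRNA, Roquins (Rc3h1 and Rc3h2) bind stem-loops and recruit decay factors, and BTG proteins stimulate deadenylation. ARID5A works the other way, protecting some of the transcripts that Regnase-1 would destroy. In T cells these proteins limit costimulatory receptors, cytokines and NF-kB components.

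The AU-rich heptamer TATTTAT, the core that ZFP36 proteins bind, was searched on the sense strand in the 3′ UTR of 1 GENCODE M21 transcript a gene, because 3 of the 10 members are the readers of that element. It was present in 6 of the 10 members and at least 3 times in 4 of them, while 27.8% of 11038 tested genes with a 3′ UTR had at least 1 and 3.43% had 3 or more. Those shares were not matched for length: the median 3′ UTR was 705 bases with 0 heptamers and 3129 bases with 3 or more. The 3 ZFP36 members each held 3, in 3′ UTRs of 774 bases (Zfp36), 1835 bases (Zfp36l1) and 1822 bases (Zfp36l2). Rc3h2 held 3 in 5160 bases, Rc3h1 held 2 in 7181 bases and Btg2 held 1 in 2199 bases, and no TATTTAT was found in the 3′ UTRs of Zc3h12a, Zc3h12d, Arid5a and Btg1. A window of 27 bases around a heptamer of each of the 6 members follows, then those of Il10 and Pim1, whose transcripts are reported targets of the family and are described further on. The heptamers are in capitals and overlapping copies run together, as in Pim1.
Zfp36: gtgggcccttTATTTATgacgacttta
Zfp36l1: tatcaaaacgTATTTATtgccaaacta
Zfp36l2: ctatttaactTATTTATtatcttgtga
Rc3h1: ctttactcatTATTTATtgagatgagg
Rc3h2: ccagctgcttTATTTATctttttcatt
Btg2: aatgaagagcTATTTATacatgttttt
Il10: ctctccgaaaTATTTATtacctctgat
Pim1: ttaatgTATTTATTTATTTATTTATtt

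A pair of sets of members shared an order of group means, and the RefSeq promoter windows of these genes (GRCm38.p6, 250 bases before to 50 bases after the start, 300 bases) are shown for that reason. Zfp36, Zfp36l1 and Zc3h12a were highest in ST2-high, then ST2-low, then ST2KO. Arid5a, Btg1 and Btg2 were highest in ST2-low, then ST2-high, then ST2KO. Rc3h1 had the same order of means, but its wild-type groups overlapped and its window is not shown. The place of Btg1 and Zfp36 is less firm: the wild-type difference of Btg1 was not called, and that of Zfp36 was lost in 12 of 19 alternatives. The windows lie at chr7:28379179-28379478 on the minus strand (Zfp36), chr12:80112964-80113263 on the minus strand (Zfp36l1), chr4:125127832-125128131 on the minus strand (Zc3h12a), chr1:36307483-36307782 on the plus strand (Arid5a), chr10:96616751-96617050 on the plus strand (Btg1) and chr1:134079106-134079405 on the minus strand (Btg2), and each is written in the direction of transcription. Capitals mark matches, on either strand, to the cyclic AMP response element TGACGTCA, the core TGACG of that element, the AP-1 site TGANTCA, the NF-kB motif or the CArG box.
Zfp36: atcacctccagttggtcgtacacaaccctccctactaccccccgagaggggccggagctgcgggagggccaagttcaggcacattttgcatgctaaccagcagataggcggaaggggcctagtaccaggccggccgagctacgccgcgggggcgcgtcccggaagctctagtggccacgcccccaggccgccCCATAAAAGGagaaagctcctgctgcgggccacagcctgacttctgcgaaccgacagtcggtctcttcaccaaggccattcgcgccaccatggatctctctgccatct
Zfp36l1: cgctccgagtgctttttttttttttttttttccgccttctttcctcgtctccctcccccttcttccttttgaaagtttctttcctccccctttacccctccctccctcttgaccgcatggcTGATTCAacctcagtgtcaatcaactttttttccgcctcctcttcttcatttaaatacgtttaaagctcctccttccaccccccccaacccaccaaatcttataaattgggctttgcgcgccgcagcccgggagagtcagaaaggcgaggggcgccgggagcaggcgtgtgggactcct
Zc3h12a: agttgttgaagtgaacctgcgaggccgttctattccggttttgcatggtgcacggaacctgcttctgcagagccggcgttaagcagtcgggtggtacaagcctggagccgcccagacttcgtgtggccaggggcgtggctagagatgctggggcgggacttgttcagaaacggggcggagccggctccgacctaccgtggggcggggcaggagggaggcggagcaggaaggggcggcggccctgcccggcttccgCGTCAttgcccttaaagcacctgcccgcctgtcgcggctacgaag
Arid5a: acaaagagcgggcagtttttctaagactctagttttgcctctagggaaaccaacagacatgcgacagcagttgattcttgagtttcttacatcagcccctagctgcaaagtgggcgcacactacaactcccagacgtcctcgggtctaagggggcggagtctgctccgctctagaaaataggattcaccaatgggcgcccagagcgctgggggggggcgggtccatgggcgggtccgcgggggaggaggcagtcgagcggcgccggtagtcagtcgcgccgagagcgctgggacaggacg
Btg1: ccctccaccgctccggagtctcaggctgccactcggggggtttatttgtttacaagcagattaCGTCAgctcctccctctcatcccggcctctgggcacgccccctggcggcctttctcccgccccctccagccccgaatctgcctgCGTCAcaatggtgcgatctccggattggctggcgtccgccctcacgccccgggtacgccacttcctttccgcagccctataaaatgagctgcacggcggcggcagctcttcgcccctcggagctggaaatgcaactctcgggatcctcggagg
Btg2: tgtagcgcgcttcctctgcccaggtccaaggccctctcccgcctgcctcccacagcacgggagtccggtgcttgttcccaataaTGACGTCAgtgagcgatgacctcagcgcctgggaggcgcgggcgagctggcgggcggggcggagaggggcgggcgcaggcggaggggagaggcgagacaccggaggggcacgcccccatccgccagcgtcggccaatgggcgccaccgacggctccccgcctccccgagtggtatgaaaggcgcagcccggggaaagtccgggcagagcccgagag

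Btg2 held the full cyclic AMP response element 166 bases upstream of its start, where 2 matches to the core overlap it, and Btg1 held core matches 187 and 103 bases upstream. Zfp36 held a CArG box, the motif of serum response factor, 58 bases upstream, and Zfp36l1 held an AP-1 match 129 bases upstream. Zc3h12a held 1 core match just past its start, and Arid5a held none of the motifs searched. Of the members not shown, Rc3h1 held an AP-1 match 133 bases upstream and Zc3h12d and Rc3h2 held none. Over 32851 promoter windows of the same length, 1.79% held the full element, 20.8% the core, 7.81% an AP-1 match, 8.46% an NF-kB match and 1.63% a CArG box. No NF-kB match lay in the 9 windows searched, and Zfp36l2 was not in the promoter table.

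The libraries held between 11659659 and 43406680 counts, both extremes being ST2KO libraries, and 12219 genes were tested. Il1rl1 had 57.7, 61.4 and 83.6 CPM (the count scaled to library size) in ST2KO libraries, against 516, 421 and 547 CPM in ST2-high and 2.16, 3.59 and 2.11 CPM in ST2-low. Which exons the knockout removes is not given, so these counts do not check that label. Foxp3 averaged 430.2 ± 17.6 CPM in ST2KO, 568 ± 47.8 CPM in ST2-high and 462 ± 16.3 CPM in ST2-low (SD, n = 3 each), and Cd4 and Cd3e passed no comparison. The T cell gene Cd3d averaged 165 ± 10.4 CPM in ST2KO, 130.4 ± 16.8 CPM in ST2-high and 137 ± 5.78 CPM in ST2-low, and was called higher in ST2KO against ST2-low (1.21-fold) and against ST2-high (1.26-fold). The Treg genes Il2ra, Ikzf2 and Tnfrsf18 passed all 3 comparisons, in directions that differed by gene. In that order, ST2KO over ST2-low gave log2 0.30, 0.22 and -0.57, and ST2KO over ST2-high gave 0.145, -0.21 and -1.10. ST2-high over ST2-low gave 0.16, 0.43 and 0.54. Ctla4 was called lower only in ST2KO, by 2.54-fold against ST2-low and 2.70-fold against ST2-high. Foxp3 was called 1.32-fold lower in ST2KO against ST2-high, and ST2-high exceeded ST2-low by 1.23-fold. ST2-high replicate 3 stood apart from its group: its counts differed from the other ST2-high libraries with a chi-square of 16.5 and 19.9 per gene, against 4.46 to 8.22 for the other pairs. Without it no member's log2 fold change moved by more than 0.06, so the values below are given with it.

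Calls were made with edgeR's quasi-likelihood test at a Benjamini-Hochberg adjusted p of 0.05. Of the 10 members 10 passed in ST2KO against ST2-low, where 62.3% of all tested genes passed: 3 were higher (33.0% of all genes) and 7 lower (29.3%). In ST2KO against ST2-high 10 passed, where 64.5% of all genes passed: 2 were higher (31.9%) and 8 lower (32.6%). In ST2-high against ST2-low 7 passed, where 26.1% of all genes passed: 4 were higher (15.3%) and 3 lower (10.8%). The libraries of the groups did not overlap for 10 members in ST2KO against ST2-low (67.2% of all genes), for 10 in ST2KO against ST2-high (66.8%) and for 8 in ST2-high against ST2-low (38.1%). Since the members were chosen on these contrasts, nothing is read from those counts. The median log2 fold change of the members was -0.41 in ST2KO against ST2-low, where that of all tested genes was 0.05, and -0.36 in ST2KO against ST2-high, where that of all genes was 0.02. In ST2-high against ST2-low the members' median was -0.06 and that of all genes was -0.002. Differences of at least 2-fold among the members were Arid5a in ST2KO against ST2-low, and Arid5a and Zc3h12a in ST2KO against ST2-high, where 13.5% and 15.7% of all genes passed at that size. In ST2-high against ST2-low 0 members did, where 3.53% of all genes did.

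**Figure D1:**
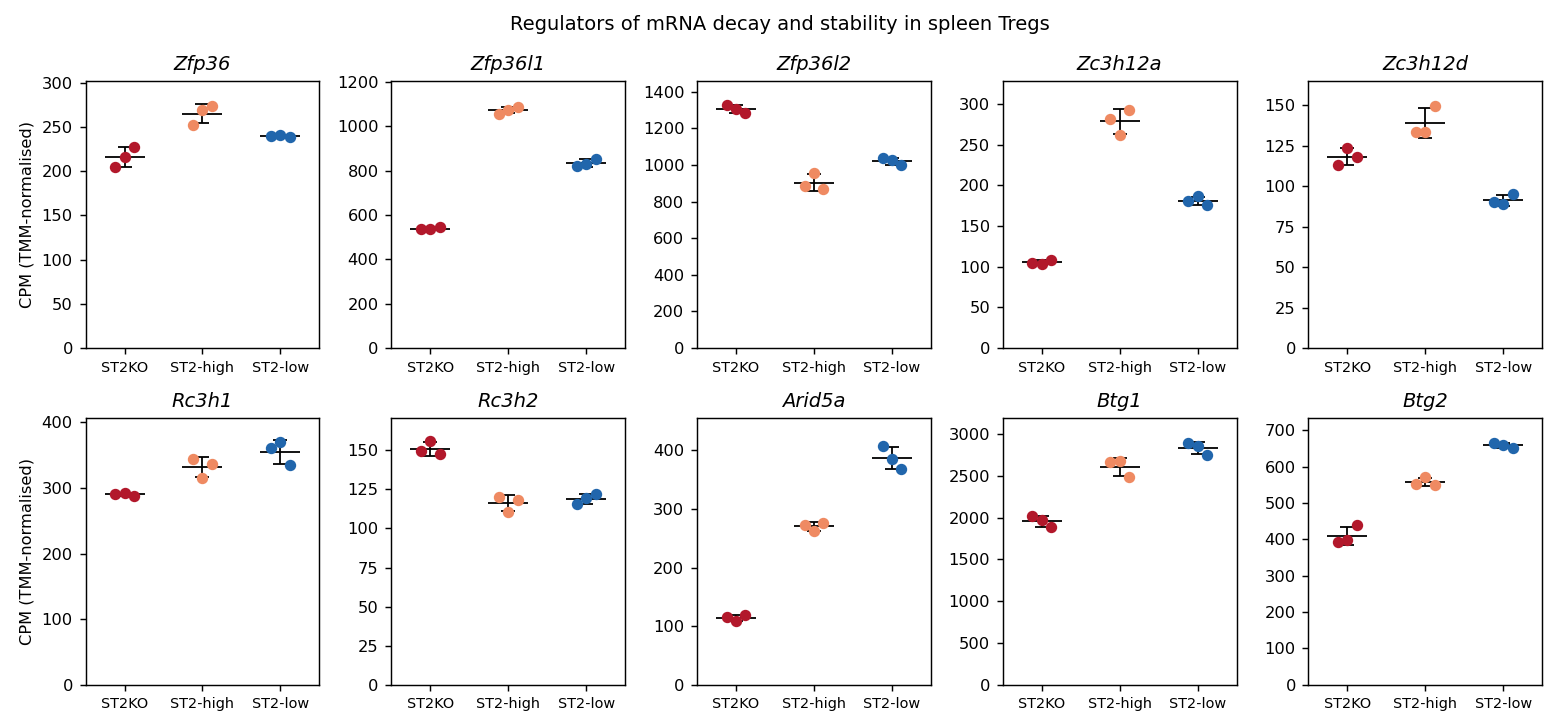
CPM of each of the 10 genes in every library, with ST2KO, ST2-high and ST2-low side by side. Points are single libraries, the long bar is the mean and the whiskers are ± 1 SD (n = 3), each panel has its own axis from 0. Arid5a, Zc3h12a and Zfp36l1 show the widest separation, with all ST2KO points below all wild-type points, while Zfp36l2 and Rc3h2 have ST2KO on top.

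Among the AU-rich element readers, the paralogs Zfp36l1 and Zfp36l2 differed in opposite directions. Zfp36l1, the family member that with Zfp36l2 restrains lymphocyte growth during development, had 536, 535 and 545 CPM in ST2KO libraries, 1057, 1073 and 1086 CPM in ST2-high and 821, 829.8 and 854 CPM in ST2-low. No library of one group reached the range of another. It was 1.55-fold lower in ST2KO than in ST2-low (log2 -0.63 ± 0.05, SE), 1.99-fold lower than in ST2-high (-0.99 ± 0.05) and 1.28-fold higher in ST2-high cells than in ST2-low (0.36 ± 0.05).

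Zfp36l2 ran the other way. It had 1325, 1307 and 1283 CPM in ST2KO libraries, 884, 958 and 868 CPM in ST2-high and 1035, 1027 and 997 CPM in ST2-low, and again no groups overlapped. Its level was 1.28-fold higher in ST2KO cells than in ST2-low (log2 0.36 ± 0.05), 1.45-fold higher than in ST2-high (0.53 ± 0.05) and 1.13-fold lower in ST2-high than in ST2-low (-0.17 ± 0.05). Because both genes were counted in the same library, their ratio carries no library size. Zfp36l1 counts per Zfp36l2 count were 0.404, 0.41 and 0.425 in ST2KO, 1.196, 1.121 and 1.251 in ST2-high and 0.793, 0.808 and 0.857 in ST2-low. Zfp36l1 counts thus exceeded Zfp36l2 counts in every ST2-high library and fell short of them in every other library.

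Zfp36, which encodes tristetraprolin, the founding member that silences Tnf mRNA in macrophages, varied far less. It had 205, 216 and 227 CPM in ST2KO libraries, 253, 269 and 273 CPM in ST2-high and 240.4, 241 and 239 CPM in ST2-low. The groups did not overlap, but the gaps were narrow. The differences were 1.11-fold lower in ST2KO than in ST2-low (log2 -0.15 ± 0.05), 1.23-fold lower than in ST2-high (-0.30 ± 0.05) and 1.10-fold higher in ST2-high cells than in ST2-low (0.14 ± 0.05). The call against ST2-low ended without ST2KO replicate 1 (log2 -0.12) and with upper-quartile scaling (-0.08), and the call of ST2-high against ST2-low ended under 12 of 19 alternatives. Per Zfp36l2 count there were 0.166 ± 0.0111 Zfp36 counts in ST2KO, 0.294 ± 0.0181 in ST2-high and 0.235 ± 0.00358 in ST2-low.

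**Figure D2:**
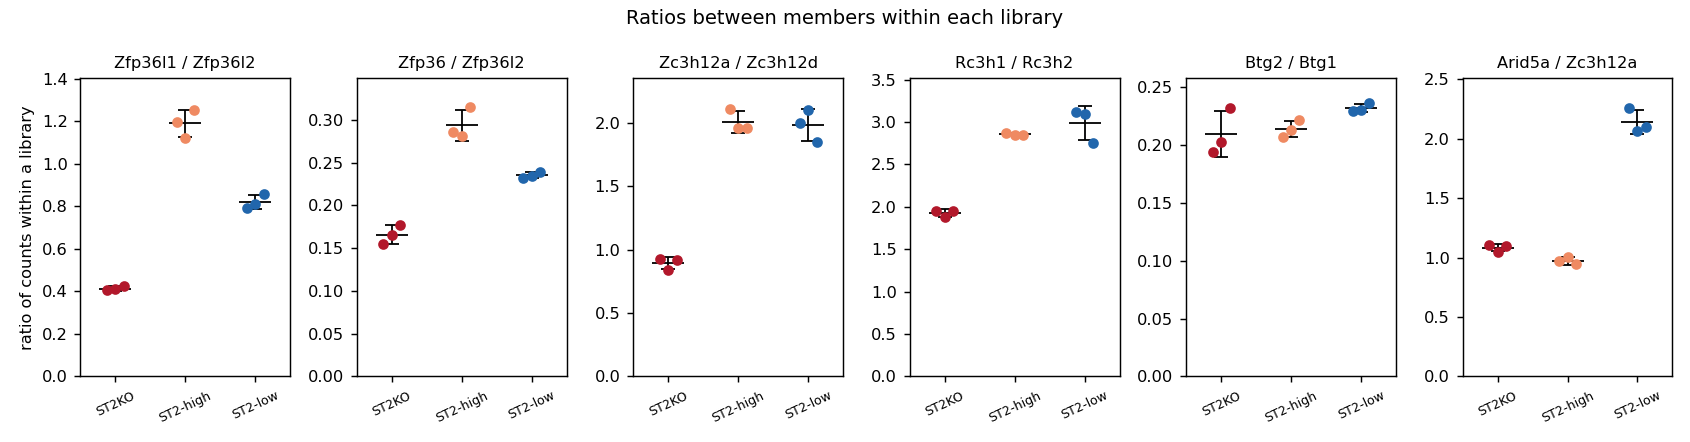
Ratios of the counts of paired genes within each library, for ST2KO, ST2-high and ST2-low. Points are libraries, bars are means and whiskers ± 1 SD (n = 3), on axes from 0. Zfp36l1 over Zfp36l2 separates all 3 groups (means 0.413, 1.19 and 0.819), Zc3h12a over Zc3h12d and Rc3h1 over Rc3h2 set ST2KO below both wild-type groups, and Arid5a over Zc3h12a sets ST2-low above both other groups.

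The Regnase genes were also unlike each other. Zc3h12a encodes Regnase-1, the endonuclease that cleaves stem-loops of inflammatory transcripts and is itself cut by the MALT1 protease on antigen receptor signalling. It had 105, 103 and 108 CPM in ST2KO libraries, 281, 262 and 293 CPM in ST2-high and 180.4, 186 and 175 CPM in ST2-low. All 3 groups stood apart. The gene was 1.72-fold lower in ST2KO than in ST2-low (log2 -0.78 ± 0.05), 2.64-fold lower than in ST2-high (-1.40 ± 0.05) and 1.54-fold higher in ST2-high cells than in ST2-low (0.62 ± 0.05).

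Zc3h12d encodes Regnase-4, a lymphocyte-enriched relative. It had 113, 123 and 118 CPM in ST2KO libraries, 133.5, 133.5 and 149.5 CPM in ST2-high and 90.1, 88.6 and 94.9 CPM in ST2-low. Like Zc3h12a it was highest in ST2-high, but ST2KO lay between the wild-type groups: 1.29-fold higher than ST2-low (log2 0.37 ± 0.06) and 1.18-fold lower than ST2-high (-0.24 ± 0.06). ST2-high was 1.52-fold higher than ST2-low (0.60 ± 0.06), a difference close to that of Zc3h12a. The ratio of Zc3h12a to Zc3h12d counts was 0.895 ± 0.0493 in ST2KO, 2.01 ± 0.0853 in ST2-high and 1.99 ± 0.128 in ST2-low, so that the wild-type groups overlapped and ST2KO lay below both.

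The Roquin genes had small differences of opposite sign in ST2KO. Rc3h1, whose mutation in sanroque mice leads to excess Icos and follicular helper T cells, had 291, 292 and 288 CPM in ST2KO libraries, 345, 316 and 337 CPM in ST2-high and 360.3, 369 and 335 CPM in ST2-low. The wild-type groups overlapped and every ST2KO library was below them, by 1.22-fold against ST2-low (log2 -0.29 ± 0.05) and 1.14-fold against ST2-high (-0.19 ± 0.05). Rc3h2, its paralog with overlapping function in T cells, had 149, 156 and 147.5 CPM in ST2KO libraries, 119.9, 111 and 118 CPM in ST2-high and 116, 119.5 and 122 CPM in ST2-low. Every ST2KO library was above every wild-type library, by 1.27-fold against ST2-low (log2 0.34 ± 0.05) and 1.30-fold against ST2-high (0.37 ± 0.05). ST2-high against ST2-low was not called for either gene (log2 -0.09 ± 0.05 for Rc3h1 and -0.03 ± 0.05 for Rc3h2). Rc3h1 counts per Rc3h2 count were 1.93 ± 0.0439 in ST2KO, 2.86 ± 0.0145 in ST2-high and 2.99 ± 0.203 in ST2-low.

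Arid5a, the stabilizing factor of the group, had the widest range of group means. It had 115, 109 and 119 CPM in ST2KO libraries, 272, 263 and 276 CPM in ST2-high and 407, 386 and 369 CPM in ST2-low. The ranges of the 3 groups were far apart. The gene was 3.39-fold lower in ST2KO than in ST2-low (log2 -1.76 ± 0.05), 2.36-fold lower than in ST2-high (-1.24 ± 0.05) and 1.43-fold lower in ST2-high than in ST2-low (-0.52 ± 0.05). ARID5A and Regnase-1 compete for some transcripts, and their genes had unlike orders: Arid5a counts per Zc3h12a count were 1.104, 1.05 and 1.098 in ST2KO, 0.968, 1.003 and 0.943 in ST2-high and 2.26, 2.07 and 2.10 in ST2-low. The ratio was close to 1 in ST2KO and ST2-high, where both genes differed between those groups by a like factor, and stood above all other libraries in each ST2-low library.

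The BTG genes, anti-proliferative adaptors between CCR4-NOT and poly(A)-binding protein that keep resting T cells quiet, were lower in ST2KO. Btg1 had 2016, 1969.7 and 1888 CPM in ST2KO libraries, 2659.5, 2681 and 2481 CPM in ST2-high and 2895, 2853 and 2753.5 CPM in ST2-low. All ST2KO libraries were below all wild-type libraries, by 1.45-fold against ST2-low (log2 -0.53 ± 0.05) and 1.33-fold against ST2-high (-0.41 ± 0.05). The wild-type groups did not overlap either, yet their difference was not called (log2 -0.12 ± 0.05, ST2-high over ST2-low). Btg2, a p53-induced and immediate early member of the family, had 392, 399 and 438 CPM in ST2KO libraries, 552, 571 and 551 CPM in ST2-high and 666, 659 and 651 CPM in ST2-low. It was 1.61-fold lower in ST2KO than in ST2-low (log2 -0.69 ± 0.05), 1.36-fold lower than in ST2-high (-0.45 ± 0.05) and 1.18-fold lower in ST2-high than in ST2-low (-0.24 ± 0.05), with no overlap between groups. Btg2 counts per Btg1 count differed little, at 0.21 ± 0.0199 in ST2KO, 0.214 ± 0.00731 in ST2-high and 0.232 ± 0.00348 in ST2-low.

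**Figure D3:**
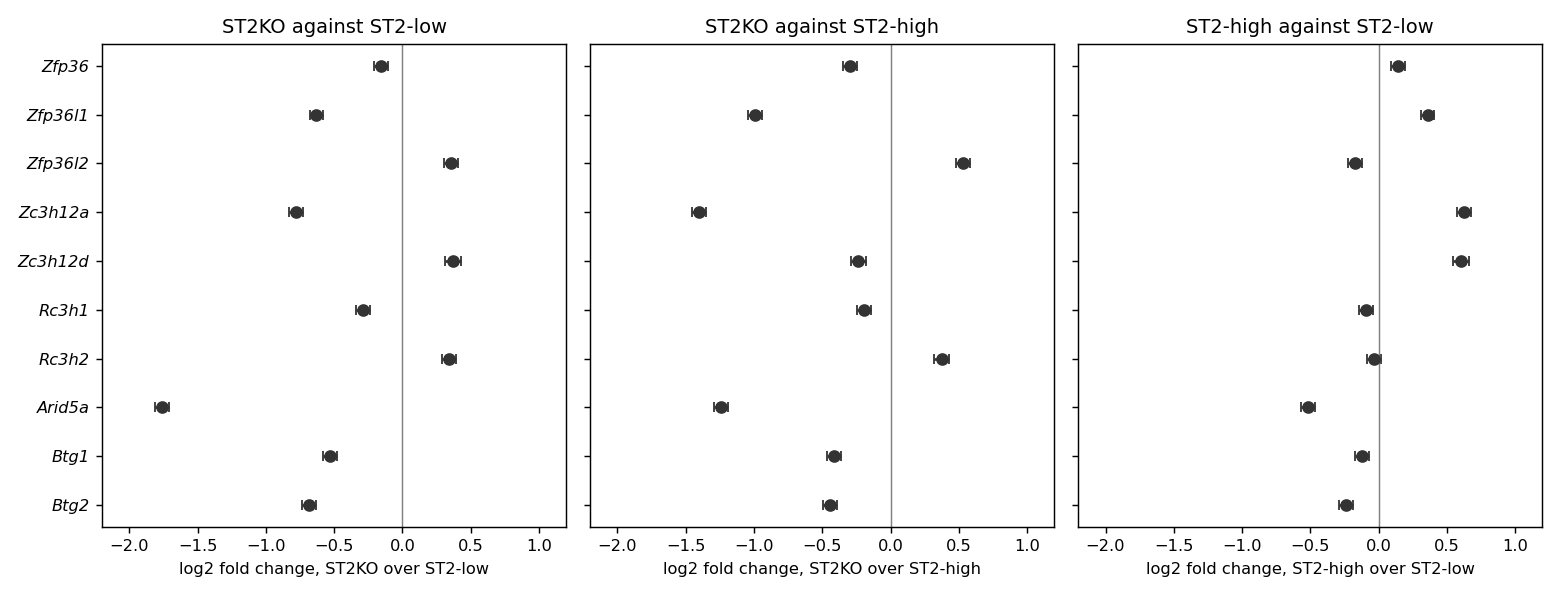
Log2 fold changes of the 10 genes from the edgeR fit in the 3 comparisons, ST2KO over ST2-low, ST2KO over ST2-high and ST2-high over ST2-low, with whiskers of ± 1 SE. The grey line marks no difference. Arid5a at -1.76 and Zc3h12a at -1.40 lie farthest left, and Zfp36l2 at 0.53 and Zc3h12d at 0.60 are among the farthest right.

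Per kilobase of the transcript used for each gene, Btg1 stood highest of the 10 in every group, with 391 CPM per kb in ST2KO, 521 in ST2-high and 567 in ST2-low. Next came Zfp36l2 in ST2KO (369.7 CPM per kb) and ST2-low (289), but Zfp36l1 in ST2-high (359). Btg2 held 149, 203 and 240.1 CPM per kb in ST2KO, ST2-high and ST2-low. The Roquin and Regnase-4 transcripts were the least abundant on this scale, between 13.2 CPM per kb for Rc3h2 in ST2-high and 33.9 CPM per kb for Zc3h12d in ST2-high. Several members share sequence or position with other genes in GENCODE M21, and the strand setting of the counting is not given. RNAs of the opposite strand overlap Zfp36, Zfp36l1 and Zfp36l2. Small RNAs or TEC transcripts (annotated as still to be tested) overlap Zc3h12d, Rc3h1 and Rc3h2, and Zfp36l1 and Btg1 have named copies. Levels of these genes are uncertain to that extent.

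The member genes were set beside the rest of the transcriptome by the genes whose log2 CPM followed them most closely over the 9 libraries, among 7162 non-member genes of at least 10 CPM. For Arid5a these were Acot2, a mitochondrial acyl-CoA thioesterase (Pearson r = 0.999), Sh2d2a, an adaptor of T cell signalling (0.998), and Ifngr2, a chain of the interferon-gamma receptor (0.997). Ifngr2 averaged 41.7 ± 1.51 CPM in ST2KO, 139 ± 3.71 CPM in ST2-high and 207 ± 16.6 CPM in ST2-low. For Zc3h12a they were Rora, a nuclear receptor of tissue and helper cells (0.999), Nfkb1, an NF-kB subunit (0.998), and Mif4gd (0.997). Rora averaged 28.8 ± 2.02 CPM in ST2KO, 203 ± 19.1 CPM in ST2-high and 86.7 ± 0.109 CPM in ST2-low. For Zfp36l1 they were Sla, an adaptor that lowers antigen receptor levels (0.999), Nfkb2 (0.998) and Nfkbid (0.998). Nfkb2 averaged 156 ± 5.66 CPM in ST2KO, 433 ± 1.91 CPM in ST2-high and 302 ± 7.97 CPM in ST2-low. These correlations describe 9 points in 3 groups that share their libraries, and such values were common: 640 genes exceeded 0.95 with Arid5a, 280 with Zc3h12a and 386 with Zfp36l1.

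Of the wider decay machinery, 106 of 109 listed genes were tested. These are not members, and Btg3, a relative of Btg1 and Btg2, was at 0 in all libraries. In ST2KO against ST2-low 26 were higher and 48 lower (69.8% called, 62.3% of all genes), and in ST2KO against ST2-high 25 were higher and 46 lower (67.0% called, 64.5% of all genes). In ST2-high against ST2-low 5 were higher and 9 lower, which is 13.2% where 26.1% of all genes were called, and without ST2-high replicate 1 or ST2-low replicate 3 the 14 calls became 7 or 9. The count and its split also moved upward, to 3 higher and 17 lower with DESeq2 size factors, 3 higher and 18 lower with a filter of 5 CPM in 3 samples, and 4 higher and 13 lower with libraries thinned to the shallowest. The median log2 fold changes of the machinery were -0.09, -0.05 and -0.03 in those comparisons. The shares called by list follow, for deadenylation, decapping, exosome, nonsense-mediated decay and other RNA-binding genes. They were 73.7%, 71.4%, 57.1%, 76.5% and 71.4% in ST2KO against ST2-low (62.3% of all genes). In ST2KO against ST2-high they were 89.5%, 47.6%, 52.4%, 76.5% and 71.4% (64.5% of all genes). In ST2-high against ST2-low they were 26.3%, 9.52%, 4.76%, 11.8% and 14.3% (26.1% of all genes).

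**Figure D4:**
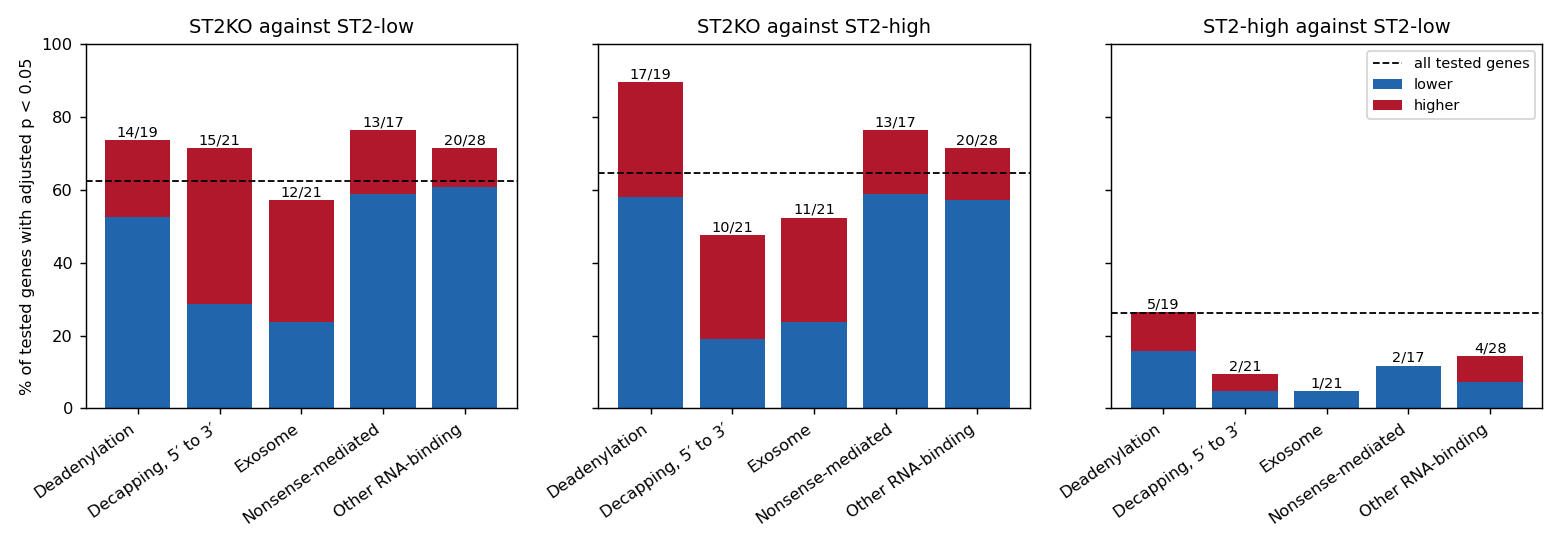
Share of tested genes of each machinery list with an adjusted p under 0.05, stacked by direction, for ST2KO against ST2-low, ST2KO against ST2-high and ST2-high against ST2-low. The dashed line is the share over all 12219 tested genes, and the fractions above the bars are called over tested genes. The deadenylation bar reaches 17 of 19 in ST2KO against ST2-high, and exosome bars stay under the line in all panels.

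The deadenylation list, which holds the complex the ZFP36 and BTG members act through, had 4 higher and 10 lower of 19 in ST2KO against ST2-low, 6 higher and 11 lower in ST2KO against ST2-high, and 2 higher and 3 lower in ST2-high against ST2-low. Tob2 and Tob1, adaptors of the same extended family as Btg1, were among those that passed. Tob2 had 276, 297 and 285 CPM in ST2KO libraries, 948, 1002 and 947 CPM in ST2-high and 779, 839.9 and 859.6 CPM in ST2-low. It fell 2.89-fold in ST2KO against ST2-low and 3.38-fold against ST2-high (edgeR adjusted p = 8.93e-21 and 2.48e-22), and was 1.17-fold higher in ST2-high cells than in ST2-low. Tob1 was 2.17-fold lower in ST2KO than in ST2-low and 1.29-fold lower in ST2-high than in ST2-low, an order shared with Btg1 and Btg2. Cnot11, a CCR4-NOT subunit, was 1.62-fold lower in ST2KO than in ST2-low. Pabpc4, a poly(A)-binding protein, was 1.63-fold lower in ST2KO than in ST2-high. Pdcd4, a translation repressor that is also counted in this list, was 1.59-fold higher in ST2KO than in ST2-high.

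The decapping list of 21 genes had 9 higher and 6 lower in ST2KO against ST2-low, 6 higher and 4 lower in ST2KO against ST2-high, and 1 each way in ST2-high against ST2-low. Edc3, an enhancer of decapping, rose to 44.7 ± 3.70 CPM in ST2KO, against 24.4 ± 1.25 CPM in ST2-high and 26.05 ± 0.846 CPM in ST2-low. The helicase gene Ddx6 was 1.39-fold lower in ST2KO than in ST2-low, the scaffold Patl1 1.41-fold lower, and the exonuclease Xrn1 was 1.38-fold higher in ST2KO than in ST2-high. Of 21 exosome genes 7 were higher and 5 lower in ST2KO against ST2-low, 6 higher and 5 lower in ST2KO against ST2-high, and 1 lower in ST2-high against ST2-low. Rbm7, an adaptor of the nuclear exosome, was 1.64-fold lower in ST2KO than in ST2-low, and the helicase Skiv2l 1.30-fold lower. Nonsense-mediated decay genes had 3 higher and 10 lower of 17 in both ST2KO comparisons and 2 lower in ST2-high against ST2-low. Etf1, the translation release factor, was 1.92-fold lower in ST2KO than in ST2-low, while the kinase Smg1 was 1.28-fold higher in ST2KO cells than in ST2-low, 1.56-fold higher than in ST2-high and 1.22-fold lower in ST2-high than in ST2-low.

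Other RNA-binding regulators numbered 28 tested, with 3 higher and 17 lower in ST2KO against ST2-low, 4 higher and 16 lower in ST2KO against ST2-high, and 2 each way in ST2-high against ST2-low. N4bp1, an RNase of the same catalytic family as Regnase-1, had 89.5, 99.7 and 93.6 CPM in ST2KO libraries, 194, 171 and 207 CPM in ST2-high and 102, 96.5 and 91.7 CPM in ST2-low. It was 1.97-fold higher in ST2-high cells than in ST2-low and 2.03-fold lower in ST2KO than in it (edgeR adjusted p = 2.67e-13 and 1.15e-14), with ST2KO and ST2-low overlapping. Zc3h12c, a further Regnase paralog, had 10.3, 11.0 and 13.5 CPM in ST2KO libraries, 40.2, 35.5 and 34.4 CPM in ST2-high and 36.8, 34.5 and 35.1 CPM in ST2-low, a fall of 3.13-fold in ST2KO against ST2-low. Nufip2, a cofactor of Roquin, was 1.18-fold lower in ST2-high than in ST2-low. Zc3hav1, the zinc-finger antiviral protein, was 1.75-fold lower and the m6A reader Ythdf3 1.66-fold lower in ST2KO than in ST2-low.

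Transcripts that other work reports as bound by Regnase-1 or Roquin were listed with the members' results known, and 12 of 15 were tested. None passed as higher in ST2KO: 9 were lower and 3 not called against ST2-low (median log2 -1.16), and 11 lower and 1 not called against ST2-high (median -1.62). In ST2-high against ST2-low 6 were higher and 0 lower (median 0.41). Over all tested genes 29.3%, 32.6% and 10.8% were called lower in those comparisons and 33.0%, 31.9% and 15.3% higher, with medians of 0.05, 0.02 and -0.002. Il6, Ptgs2 and Ier3, listed transcripts called lower in both ST2KO comparisons, had few counts. They averaged 0.158, 0.833 and 0.715 CPM in ST2KO. Rel, an NF-kB subunit, had 142, 152 and 152 CPM in ST2KO libraries, 740.1, 689 and 741 CPM in ST2-high and 476, 500.4 and 522 CPM in ST2-low. It fell 3.36-fold in ST2KO against ST2-low and 4.87-fold against ST2-high. Icos, the costimulatory receptor that Roquin is best known for limiting, had 211, 225 and 228 CPM in ST2KO libraries, 826, 839 and 815 CPM in ST2-high and 443, 442 and 427 CPM in ST2-low, with 1.98-fold and 3.74-fold lower levels in ST2KO and a 1.89-fold higher level in ST2-high than in ST2-low.

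Tnfrsf4, which encodes the receptor OX40, was 2.64-fold lower in ST2KO than in ST2-low and 1.47-fold higher in ST2-high cells than in ST2-low, and Nfkbid, an atypical inhibitor of NF-kB, was 1.70-fold lower and 1.34-fold higher in the same comparisons. Ctla4, the coinhibitory receptor, averaged 786 ± 40.9 CPM in ST2KO, 2123 ± 71.4 CPM in ST2-high and 1996 ± 46.9 CPM in ST2-low. Tfrc, the transferrin receptor, was 1.81-fold lower in ST2KO than in ST2-low. For Nfkbiz and Irf4 the ST2KO and ST2-low libraries overlapped and ST2-high stood above both, by 1.80-fold and 1.91-fold over ST2-low. Zc3h12a itself was lowest in ST2KO and highest in ST2-high, as were Rel, Icos, Tnfrsf4 and Nfkbid. Whether the members act on these transcripts here was not tested, and the files hold RNA levels, not decay rates.

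**Figure D5:**
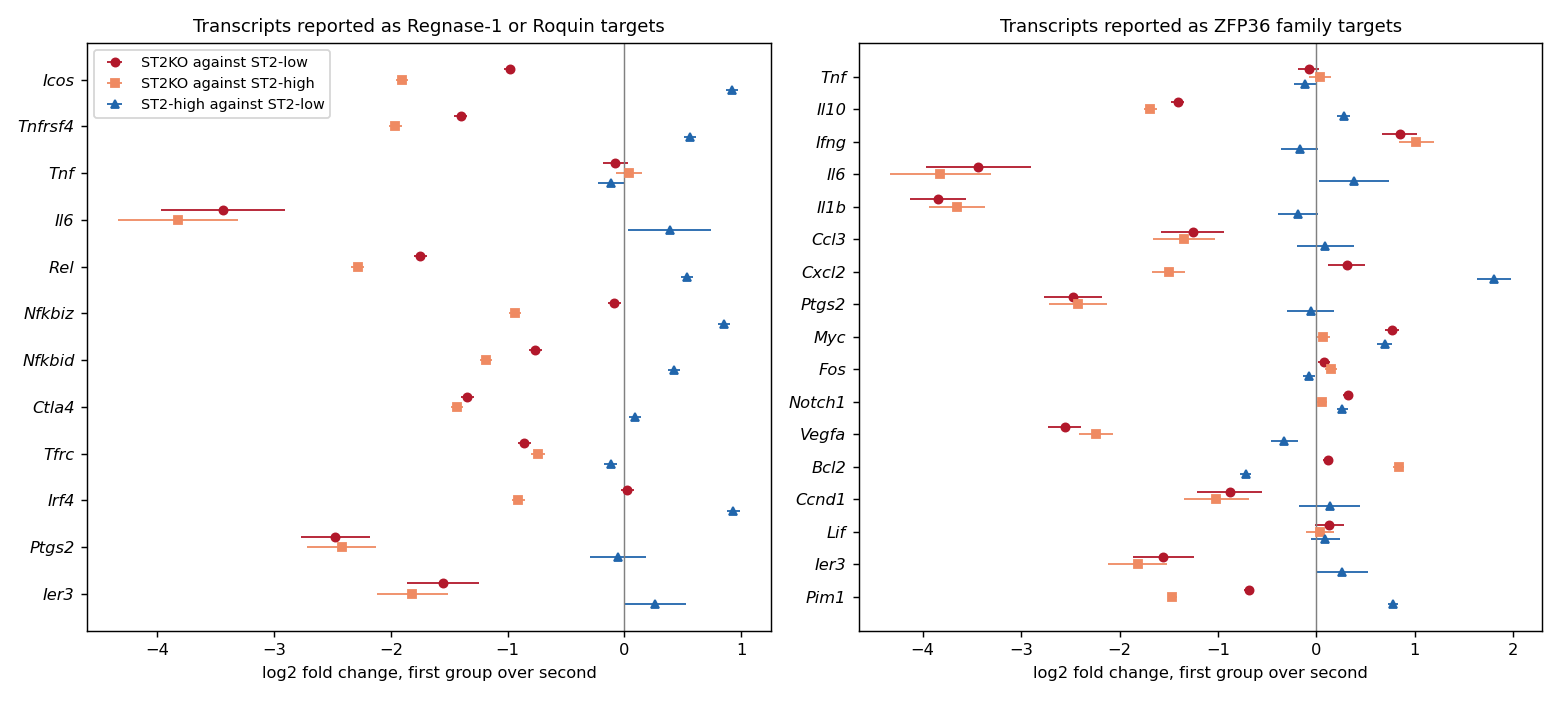
Log2 fold changes with ± 1 SE of the tested transcripts reported as targets of Regnase-1 or Roquin (left) and of the ZFP36 family (right), for ST2KO against ST2-low, ST2KO against ST2-high and ST2-high against ST2-low. The grey line marks no difference. Rel (-1.75 and -2.28 in the ST2KO comparisons, 0.54 in ST2-high against ST2-low) and Pim1 (-0.68, -1.46 and 0.78) lie on opposite sides of it, while Tnf lies near it in all 3.

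Of the transcripts reported as ZFP36 targets 17 of 23 were tested, and the tested genes Tnf, Il6, Ptgs2 and Ier3 are also in the list above. In ST2KO against ST2-low 3 were higher and 9 lower, and in ST2KO against ST2-high 3 higher and 10 lower. In ST2-high against ST2-low 5 were higher and 1 lower. That was 70.6%, 76.5% and 35.3% of the list called, where 62.3%, 64.5% and 26.1% of all genes were. Many of the genes lower in ST2KO had few counts. Il6, Ptgs2, Ier3, Il1b, Ccl3 and Ccnd1 averaged between 0.158 and 0.980 CPM in ST2KO and at most 7.54 CPM in any group. Pim1, a kinase of cytokine signalling with 4 heptamers in its 3′ UTR, had 509, 496 and 496 CPM in ST2KO libraries, 1401, 1342 and 1395 CPM in ST2-high and 799, 813 and 796 CPM in ST2-low. It was 1.60-fold lower in ST2KO than in ST2-low, 2.76-fold lower than in ST2-high and 1.72-fold higher in ST2-high cells than in ST2-low. Il10, the suppressive cytokine, also with 4, had 27.4, 24.1 and 26.2 CPM in ST2KO libraries, 86.3, 79.0 and 86.2 CPM in ST2-high and 69.5, 69.8 and 68.3 CPM in ST2-low. Both followed the order of Zfp36l1 and Zfp36. By group means so did Ier3, Il6, Ccl3 and Ccnd1, at no more than 2.80 CPM, while the other tested transcripts did not. Bcl2, a survival factor, was 1.78-fold higher in ST2KO than in ST2-high and 1.64-fold lower in ST2-high than in ST2-low. Myc was 1.70-fold higher in ST2KO cells than in ST2-low and 1.62-fold higher in ST2-high cells than in ST2-low. Ifng averaged 8.48 CPM in ST2KO, 4.22 CPM in ST2-high and 4.75 CPM in ST2-low, 1.80-fold higher in ST2KO cells than in ST2-low. By group means Bcl2 (339, 190 and 313 CPM in ST2KO, ST2-high and ST2-low) and Ifng had the order of Zfp36l2. For Bcl2 the ST2KO and ST2-low libraries overlapped, and for Ifng the wild-type groups did. Myc had neither order, at 62.4, 59.6 and 36.8 CPM in those groups. Tnf, with 8 heptamers, passed no comparison and averaged 15.1 CPM in ST2KO, 14.8 CPM in ST2-high and 16.0 CPM in ST2-low.

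Over all tested genes with a 3′ UTR, those with 0, 1, 2 and 3 or more TATTTAT heptamers had median log2 fold changes of 0.06, -0.002, 0.003 and -0.08 in ST2KO against ST2-low. The same medians were 0.02, -0.03, -0.06 and -0.10 with ST2-high as the comparator of ST2KO, and 0.01, -0.02, -0.03 and -0.03 between the wild-type groups (ST2-high over ST2-low). The groups held 7971, 2022, 666 and 379 genes, and the quartiles of each spanned 0 in every comparison. Their median 3′ UTR lengths were 705, 1709, 2390 and 3129 bases, and the part of length in these values was not tested.

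Other gene lists were measured beside the members. Of 19 immediate early and dissociation-induced genes, a class that Zfp36 and Btg2 are also known to belong to, 6 were higher and 12 lower in ST2KO against ST2-low, 7 higher and 12 lower against ST2-high, and 5 higher and 6 lower in ST2-high against ST2-low. Their summed level was 5216 to 5306 CPM in ST2KO, 7670.1 to 8187 CPM in ST2-high and 7634 to 8045 CPM in ST2-low, and none was at 0 in any library. Those calls were 94.7%, 100% and 57.9% of the list, where 62.3%, 64.5% and 26.1% of all genes were called. Nr4a1 was 3.31-fold lower in ST2KO than in ST2-low, while Jun was 1.96-fold higher in ST2KO than in ST2-high. Egr1 averaged 129.7 CPM in ST2KO, 73.8 CPM in ST2-high and 90.5 CPM in ST2-low, and Egr2 24.1, 13.2 and 17.1 CPM. The heat shock genes of the list were also highest in ST2KO. Hspa1b averaged 24.6 ± 12.1 CPM in ST2KO, 1.12 ± 0.171 CPM in ST2-high and 1.35 ± 0.293 CPM in ST2-low. Hspa1a averaged 5.79, 0.518 and 0.617 CPM and Dnajb1 167, 90.7 and 106 CPM in the same groups. Abundant genes such as Junb (1568, 2265 and 2186 CPM) weigh most in the summed level. Of 16 tested myeloid and dendritic markers 14 were lower in each ST2KO comparison, with sums of 96.8 to 108 CPM in ST2KO, 201 to 214 CPM in ST2-high and 214 to 249 CPM in ST2-low, with no listed marker at 0 in every library, though Fcgr1, Xcr1 and Marco were each at 0 in 1 library. In ST2-high against ST2-low 1 myeloid marker was higher and 3 were lower. Of 14 tested B cell markers 7 were lower in ST2KO against ST2-low and 8 against ST2-high, and their sums were 140.2 to 178 CPM in ST2KO, 175 to 215 CPM in ST2-high and 153 to 229 CPM in ST2-low, with 1 higher in ST2-high against ST2-low and none at 0 in any library. NK markers summed to 36.9 to 47.1 CPM in ST2KO, 40.1 to 41.3 CPM in ST2-high and 47.8 to 50.4 CPM in ST2-low, with Klra8 and Klra4 at 0 in all libraries, and of 8 tested 1 was lower in ST2KO against ST2-low, 1 higher against ST2-high and 1 lower in ST2-high against ST2-low. Neutrophil, erythroid and platelet markers summed to 22.3 to 26.7 CPM in ST2KO, 26.7 to 38.2 CPM in ST2-high and 35.4 to 58.3 CPM in ST2-low, with Hba-a1 and Hba-a2 at 0 in all libraries and Camp in 1. Of 11 tested 6 were lower in ST2KO against ST2-low, 1 was higher and 3 lower against ST2-high, and 1 was lower in ST2-high against ST2-low. The part of these in the members' levels was not tested. Some reported targets are also transcripts of myeloid cells and had low levels: Il1b averaged 0.479 CPM in ST2KO, 6.50 CPM in ST2-high and 7.54 CPM in ST2-low, and Ptgs2 0.833 CPM in ST2KO, 4.27 CPM in ST2-high and 4.47 CPM in ST2-low.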

How the data were processed

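Gene counts from 9 RNA sequencing libraries were used. The deposited values are raw whole-number counts, 1 file a sample, judged from the values and per the file headers. The aligner, genome build, annotation, counter and strand setting of the authors are not stated in these sources. Of 23420 symbols 27 had been turned into dates, between 0.182% and 0.206% of a library, and were left out. The ribosomal RNA precursor Rn45s took 12.1% to 16.9% of counts. Groups came from the genotype labels and titles.

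Counts were scaled with TMM factors and filtered by group (minimum count 10, minimum total 15), which left 12219 genes. They were tested with edgeR 4.0.16 (robust quasi-likelihood fit on all 9 samples, R 4.3.3) and adjusted by Benjamini-Hochberg over all tested genes at 0.05. The test was first run on simulated data with 200 of 12219 genes changed. For ST2-high against ST2-low, ST2KO against ST2-low and ST2KO against ST2-high, 11 of 139, 13 of 152 and 10 of 143 calls fell on unchanged genes. Changes of 1.25-fold were recovered in 42.0%, 51.4% and 39.7% of cases. Far more genes were called in the real data, a setting the simulation did not test. Levels are CPM with TMM factors, as mean ± SD, folds are those of the fit and the SE is the log2 fold change over the root of its F. Depth sets precision through the counts, and every member had a mean of at least 91.2 CPM in each group. All replicate pairs differed beyond sampling noise.

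Alternatives were DESeq2 size factors, upper-quartile factors, a 5 CPM filter in 3 samples, no filter, DESeq2 1.42.0, limma-voom (limma 3.58.1), only the samples compared, a replicate block, thinning, leaving out Rn45s, and leaving out each replicate. Members and lists were chosen with earlier results of these data known. Genes named are the members, up to 3 genes per list and comparison with the smallest adjusted p at 1 CPM or more, tested reported targets, the 3 genes most like each of 3 members (r of log2(CPM + 0.5)), and Il1rl1, Foxp3 and T cell genes as label checks. Btg3, Junb, Egr1, Egr2 and the heat shock genes were named after their values were seen. Transcripts for lengths and 3′ UTRs were those with the longest coding sequence in GENCODE M21, of which 11038 tested genes had one.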

Additional observations from a re-analysis of the deposited data

How the results depend on the processing

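The members were recomputed under 19 alternatives, 9 of which left out 1 replicate each. Members called stayed between 6 and 8 in ST2-high against ST2-low, between 9 and 10 in ST2KO against ST2-low and at 10 in ST2KO against ST2-high. Under edgeR with Benjamini-Hochberg adjustment, or the tool of the alternative, Zfp36 in ST2-high against ST2-low had an adjusted p of 0.0309 to 0.209 and was lost in 12. Zfp36 in ST2KO against ST2-low was lost with upper-quartile factors (adjusted p = 0.162) and without ST2KO replicate 1 (0.0964), and Zfp36l2 in ST2-high against ST2-low without ST2-high replicate 1 (0.0561). Btg1 in ST2-high against ST2-low was called under 6 (0.00703 to 0.239) and Rc3h1 there with thinned libraries (0.039). Rc3h2 in ST2-high against ST2-low turned its sign without ST2-high replicate 2 (log2 0.003), and ranged from -0.056 to 0.003 with 1 replicate left out. The causes were not tested. Machinery genes called in ST2-high against ST2-low ranged from 7 to 14 over the leave-one-out fits and from 14 to 21 over the others, the highest being 20 with DESeq2 size factors and 21 with the 5 CPM filter, where 17 and 18 were lower. The split of all genes called in ST2-high against ST2-low was 58.7% higher, against 46.6% with the 5 CPM filter and 48.5% with thinned libraries.

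Deviations of same-numbered libraries from their group means correlated between -0.073 and 0.111. These values cannot show whether same-numbered libraries came from the same animals, which the labels do not give. With the replicate block 7, 10 and 10 members were called in ST2-high against ST2-low, ST2KO against ST2-low and ST2KO against ST2-high, and 15, 74 and 71 machinery genes. Over all genes the block gave 3210, 7622 and 7885 calls.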
